A study of Mus musculus with 10 samples.

Results

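Receptors of natural killer (NK) cells and the cell surface ligands that one of them, NKG2D, recognises were compared in melanomas grown in wild type mice and in mice lacking Siah2, a ubiquitin ligase. The genes were chosen by symbol: Klrk1, Klrd1, Klrc1, Klrc2, Klrb1c, Klrg1, Ncr1, Raet1a, H60a and Ulbp1. Of these 10 genes, 9 were matched to a row of the value table, which held 770 gene probes, and Raet1a was not analysed here. YUMMER1.7 cells, a mouse melanoma line made from a Braf-mutant line by ultraviolet irradiation, were injected into Siah2 WT or Siah2-/- mice, and whole tumors were taken at day 11 by the sample labels. RNA of 10 tumors, 5 labelled Siah2 WT (replicates 2 to 6) and 5 labelled Siah2 KO (replicates 1, 2, 3, 5 and 6), was counted with a NanoString PanCancer Immune panel, which hybridises a colour-coded probe to each transcript without amplification. The host cells of the Siah2 KO tumors lack Siah2 and the injected melanoma cells do not, so transcripts of both origins are mixed in each value. The study describes its mice as male, of a C57BL/6 background and several weeks old; which mouse gave which tumor and the processing batch were not given in the sources used here. Replicate numbers 2, 3, 5 and 6 occur in both groups, and no source says what a shared number means. The p-values measure the spread between these tumors.

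NK cells read a balance of activating and inhibitory receptors. NKG2D, encoded by Klrk1, recognises stress-induced relatives of MHC class I such as the products of the Raet1, H60 and Ulbp1 genes, and signals through the adaptor DAP10, encoded by Hcst. CD94, encoded by Klrd1, pairs either with the inhibitory chain NKG2A (Klrc1) or with the activating chain NKG2C (Klrc2), and both pairs bind the nonclassical class I molecule Qa-1, encoded by H2-T23. Ncr1 (NKp46) and Klrb1c (NK1.1) are used to identify mouse NK cells, and Klrg1 is an inhibitory receptor of mature NK cells and differentiated T cells that binds cadherins. NKG2D and NKG2A are also carried by activated CD8 T cells, so in whole tumor RNA the transcripts of Klrk1 and Klrc1 need not come from NK cells. Which cells carried each of the transcripts was not tested. In such bulk RNA, fewer cells of a type and less RNA per cell cannot be told apart.

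The reference annotation places Klrd1, Klrk1, Klrc2 and Klrc1 close together on mouse chromosome 6, in the order Klre1, Klrd1, Klrk1, Klrc3, Klrc2, Klrc1 and Klri1, whereas Ncr1 lies on chromosome 7 and Ulbp1 on chromosome 10. Because 4 of these clustered genes were measured side by side, the bases just before their starts are shown for 3 of them, with Ncr1 and Ulbp1 for contrast. RefSeq entries (build GRCm38.p6) were found for 6 of the 10 genes, and Klrd1, Klrg1, Raet1a and H60a are named only. Each sequence runs 5′ to 3′ on the gene's own strand over the 250 bases before the most upstream annotated start. The windows are chr6:129623865-129624114 for Klrk1, chr6:129678974-129679223 for Klrc1 and chr6:129660597-129660846 for Klrc2, all on the minus strand, chr7:4337465-4337714 on the plus strand for Ncr1, and chr10:7473478-7473727 on the minus strand for Ulbp1. Capitals mark TGTGGT or its reverse complement ACCACA, the core letters read by Runx factors, and GTGTGA or TCACAC, the core letters of a T-box site; both motifs were searched on both strands and were chosen with the sequences in view.
Klrk1: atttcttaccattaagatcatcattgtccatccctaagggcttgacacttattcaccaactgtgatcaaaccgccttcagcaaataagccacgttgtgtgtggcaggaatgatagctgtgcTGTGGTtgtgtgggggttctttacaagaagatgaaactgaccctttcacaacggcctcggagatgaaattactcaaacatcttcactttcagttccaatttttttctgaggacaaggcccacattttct
Klrc1: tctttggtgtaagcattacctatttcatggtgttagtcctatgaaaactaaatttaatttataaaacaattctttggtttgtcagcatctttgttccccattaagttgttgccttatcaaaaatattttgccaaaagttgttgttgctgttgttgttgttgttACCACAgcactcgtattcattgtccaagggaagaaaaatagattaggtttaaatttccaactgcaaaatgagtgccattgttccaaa
Klrc2: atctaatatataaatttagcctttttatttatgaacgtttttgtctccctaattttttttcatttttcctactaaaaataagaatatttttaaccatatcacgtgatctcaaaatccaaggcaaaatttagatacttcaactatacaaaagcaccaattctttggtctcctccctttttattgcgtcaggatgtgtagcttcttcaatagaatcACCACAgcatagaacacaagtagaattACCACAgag
Ncr1: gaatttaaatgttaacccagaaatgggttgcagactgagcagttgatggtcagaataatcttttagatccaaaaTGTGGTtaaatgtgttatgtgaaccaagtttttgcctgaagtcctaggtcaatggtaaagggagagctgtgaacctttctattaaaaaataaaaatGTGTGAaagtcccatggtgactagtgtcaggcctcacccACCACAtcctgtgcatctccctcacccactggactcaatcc
Ulbp1: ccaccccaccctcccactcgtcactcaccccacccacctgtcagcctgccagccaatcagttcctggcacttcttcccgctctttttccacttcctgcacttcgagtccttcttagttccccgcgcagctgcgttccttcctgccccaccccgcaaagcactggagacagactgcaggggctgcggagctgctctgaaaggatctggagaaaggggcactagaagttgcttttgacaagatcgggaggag
The Runx letters were present in 5 of the 6 windows (Klrk1, Klrc1, Klrc2, Klrb1c and Ncr1) and in 14.2% of all 27025 mouse windows of the same length. In Klrc2 and Ncr1 they occurred at 2 places each. The T-box letters were found in 1 of the 6 windows, that of Ncr1, against 12.2% of all windows. TTCNNNGAA, the letters of a STAT site, was found in 0 of the 6 against 7.14% of all windows. These matches describe letters in a window and do not show that any factor was bound there.

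Most of the lectin-like receptors were higher in the Siah2 KO tumors, with Klrc1 ahead, whereas Klrg1 and the NKG2D ligand Ulbp1 did not pass the test. Of the 9 genes, 6 were called higher (Klrk1, Klrd1, Klrc1, Klrc2, Klrb1c and Ncr1) and 0 lower, at a Benjamini-Hochberg adjusted p under 0.05 in a limma fit over all 770 probes of log2(value + 1). The same call was made upward for 31.3% and downward for 9.74% of all probes, so a rise was common on this panel. The median log2 difference (Siah2 KO minus WT) was 0.71 over the 9 genes and 0.24 over all probes. The 2 groups did not overlap for 4 genes (Klrk1, Klrd1, Klrc1 and Klrc2), against 24.5% of all probes that lay higher without overlap. When tumors were scaled to an equal median instead, which brought the median difference of all probes to -0.01, the calls over all probes were 163 higher and 152 lower, against 241 and 75 as deposited, and the same 6 genes were called higher. When tumors were scaled to the spiked positive controls, 60 probes were called higher and 35 lower, and 2 of the 6 genes, Klrc1 and Klrb1c, were still called.

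**Figure D1:**
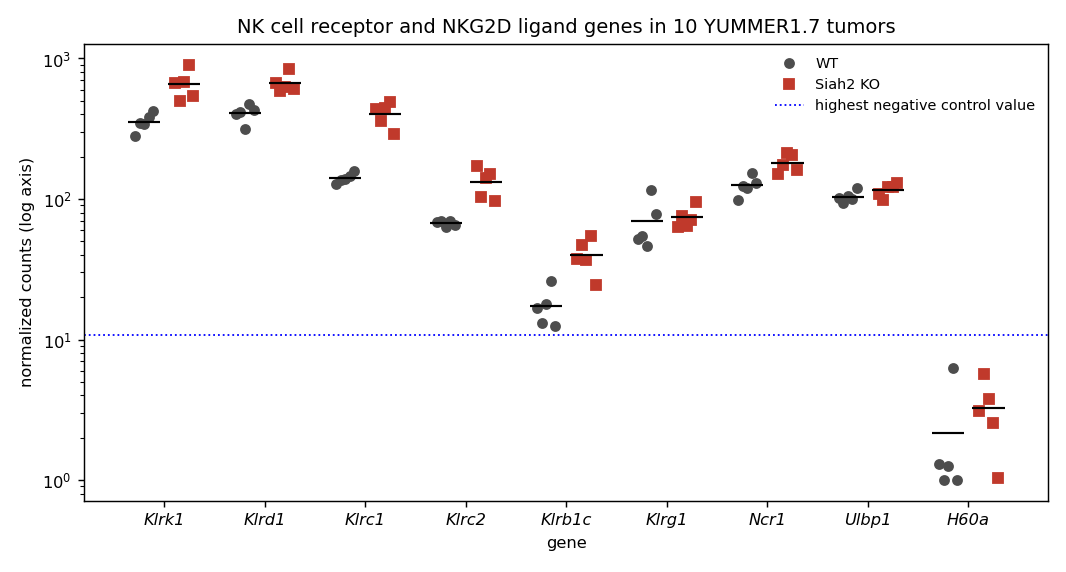
Normalized counts (log scale) of the 9 genes in each tumor, with Siah2 WT and Siah2 KO tumors side by side, 1 point a tumor and a bar at the group mean. The groups separate fully for Klrk1, Klrd1, Klrc1 and Klrc2, while every H60a point lies below 10.72, the highest negative control value, to which no reference gene factor was applied.

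Klrk1, the NKG2D chain, was higher in every Siah2 KO tumor than in any WT tumor. Its normalized counts were 281, 349, 344, 381 and 420 in WT replicates 2 to 6, and 674, 500, 679, 902 and 541 in Siah2 KO replicates 1, 2, 3, 5 and 6. The highest value was that of Siah2 KO replicate 5, and the lowest Siah2 KO value, 500, still lay above the highest WT value. The means were 355 ± 51.4 and 660 ± 157 (SD, n = 5 each), a log2 difference of 0.87 (SE 0.17, limma adjusted p = 0.0027; two-sided exact permutation p = 0.0079, the smallest that 252 divisions of the tumors allow).

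Hcst, the adaptor that carries the NKG2D signal, did not pass the test. Its normalized counts were 52.7 to 69.5 in WT tumors and 49.0 to 116 in Siah2 KO tumors, so the groups overlapped, with Siah2 KO replicate 6 lowest of all (log2 difference 0.40, limma adjusted p = 0.14). Within each tumor, the log2 difference of Klrk1 over Hcst was higher on average by 0.48 in Siah2 KO tumors, which missed the threshold after adjustment over the 10 gene pairs compared (exact permutation p = 0.040, adjusted p = 0.066).

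The CD94 family showed the largest rise among the 9 genes, on its inhibitory chain. Klrd1, the shared CD94 chain, stood at 401, 413, 317, 474 and 430 in WT replicates 2 to 6 and at 664, 588, 626, 846 and 603 in Siah2 KO replicates 1, 2, 3, 5 and 6. No Siah2 KO value fell to the WT range. Its means were 407 ± 57.3 and 666 ± 105 (SD, n = 5 each), a log2 difference of 0.71 (SE 0.14, limma adjusted p = 0.0025).

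Klrc1, the NKG2A chain that inhibits the cell when it meets Qa-1, was 128, 136, 140, 145 and 158 in the WT tumors and 440, 358, 447, 489 and 291 in the Siah2 KO tumors, in the same order of replicates. The WT tumors lay within a narrow band, and the lowest Siah2 KO tumor, replicate 6, was still well above it. The means were 141 ± 11.3 and 405 ± 79.4 (SD, n = 5 each), and the log2 difference was 1.49 (95% confidence interval 1.17 to 1.81, limma adjusted p = 0.00017), a 2.81-fold higher level on the log2(value + 1) scale. By this difference Klrc1 ranked 38 from the top among the 770 probes.

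Klrc2, the NKG2C chain that activates through a different adaptor, was higher as well. Its counts were 68.4, 69.5, 63.7, 69.7 and 65.5 in the WT tumors and 172, 103, 140, 152 and 96.4 in the Siah2 KO tumors. All Siah2 KO tumors again exceeded the WT tumors, which differed little among themselves. The means were 67.3 ± 2.66 and 133 ± 32.1 (SD, n = 5 each), a log2 difference of 0.93 (SE 0.16, limma adjusted p = 0.0014). Klrc1, Klrc2 and the neighbouring Klrc3 are close paralogs, and how far a probe to one binds transcripts of another was not tested.

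Differences taken within a tumor do not depend on how tumors were scaled. Klrc1 lay below Klrd1 by 1.51 on the log2 scale in WT tumors and by less in Siah2 KO tumors, where the mean difference Klrc1 minus Klrd1 was -0.73. This within-tumor difference was thus 0.78 higher in Siah2 KO tumors, with no overlap between groups (exact permutation p = 0.0079, adjusted p = 0.026 over 10 pairs). Klrc1 also rose relative to Klrc2, by 0.56 (exact permutation p = 0.0079, adjusted p = 0.026), whereas Klrc2 minus Klrd1 was 0.23 higher, a difference that did not pass (exact permutation p = 0.18, adjusted p = 0.20). Over the 10 pairs, 5 passed. With 1 tumor left out the number that passed ran from 0 to 7: it was 0 without WT replicate 3, 4 or 5, when no pair passed, and 2 without WT replicate 6, when both Klrc1 pairs passed. The size of the Klrc1 differences moved little over these 10 settings, from 0.72 to 0.87 against Klrd1 and from 0.52 to 0.62 against Klrc2, with adjusted p between 0.020 and 0.079.

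**Figure D2:**
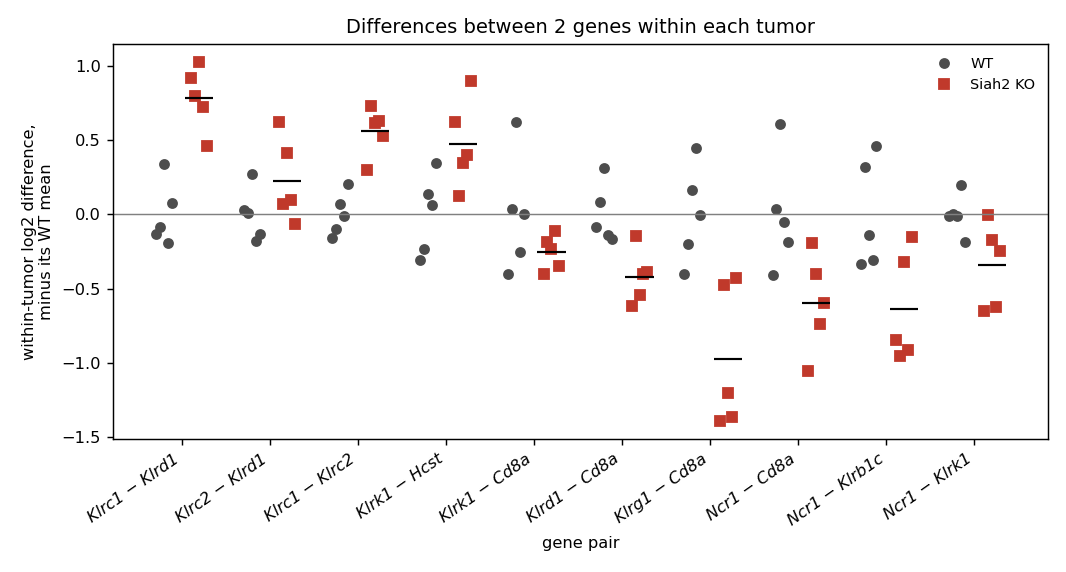
Within-tumor log2 differences for the 10 gene pairs (first gene minus second gene), 1 point a tumor, each pair shifted so that its WT mean is at 0, with a bar at the Siah2 KO mean. The groups are fully apart for Klrc1 minus Klrd1, Klrc1 minus Klrc2 and Klrg1 minus Cd8a, with Klrg1 minus Cd8a lower in Siah2 KO tumors.

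H2-T23, which encodes the Qa-1 ligand of both CD94 pairs, was also higher. Its normalized counts ran from 3069 to 4453 in WT tumors and from 5739 to 10386 in Siah2 KO tumors, without overlap. The log2 difference was 1.07 (SE 0.18, limma adjusted p = 0.0013).

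The 2 genes used to identify NK cells in mice moved by different amounts. Klrb1c, which encodes NK1.1, was at a low level: 16.6, 13.03, 17.8, 26.1 and 12.4 normalized counts in the WT tumors and 37.5, 47.3, 36.6, 54.3 and 24.3 in the Siah2 KO tumors. Of the 5 Siah2 KO tumors 4 exceeded every WT tumor, and the other, replicate 6, lay just below WT replicate 5. The log2 difference was 1.17 (SE 0.24, limma adjusted p = 0.0040, exact permutation p = 0.016). It rests on 12.9 to 36.7 counts per tumor before the reference gene factor was applied.

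Ncr1, which encodes NKp46, rose less. Its counts were 98.0, 123, 120, 154 and 130 in the WT tumors and 151, 175, 212, 206 and 160 in the Siah2 KO tumors. WT replicate 5 lay above the lowest Siah2 KO tumor, replicate 1, and the other tumors did not overlap. The means were 125 ± 20.2 and 181 ± 27.4 (SD, n = 5 each), a log2 difference of 0.53 (SE 0.14, limma adjusted p = 0.013, exact permutation p = 0.016). Within tumors, Ncr1 minus Klrb1c was lower by 0.64 on average in Siah2 KO tumors and Ncr1 minus Klrk1 by 0.34, and neither passed (exact permutation p = 0.048 and 0.056, adjusted p = 0.068 and 0.069). Eomes, a T-box factor of NK cells and CD8 T cells, was 49.0 ± 6.58 and 66.6 ± 14.6 (SD, n = 5 each; log2 difference 0.42, limma adjusted p = 0.058). Ncr1, Klrb1c and Eomes were above the highest negative control value, 10.72, in all 10 tumors. The controls carry no reference gene factor, and before that factor the lowest counts of the 3 genes were 102, 12.9 and 31.6.

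Klrg1 did not pass the test. Its counts were 52.1, 54.9, 46.2, 116 and 78.0 in the WT tumors and 63.0, 76.1, 64.4, 70.5 and 95.4 in the Siah2 KO tumors. The highest and the lowest of the 10 values were both in WT tumors. The log2 difference was 0.16 (95% confidence interval -0.38 to 0.70, limma adjusted p = 0.62), and it was -0.11 with tumors scaled to an equal median. Cdh1, which encodes the Klrg1 ligand E-cadherin, fell by 0.71 on the log2 scale (SE 0.24, limma adjusted p = 0.035): it was 35.6 to 66.4 in WT tumors and 20.1 to 44.1 in Siah2 KO tumors, and 4 of the 5 Siah2 KO tumors were below every WT tumor.

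Cd8a, the CD8 coreceptor chain, served to set the receptors against a T cell gene in the same tumor. It was 56.3 ± 14.1 in WT and 123 ± 25.4 in Siah2 KO tumors (SD, n = 5 each; log2 difference 1.13, limma adjusted p = 0.0023). Relative to Cd8a, Klrg1 was lower in Siah2 KO tumors by 0.97 without overlap (exact permutation p = 0.0079, adjusted p = 0.026). Ncr1 minus Cd8a was 1.16 in WT and 0.57 in Siah2 KO tumors (exact permutation p = 0.024, adjusted p = 0.048), and Klrd1 minus Cd8a was 2.86 and 2.44 (exact permutation p = 0.016, adjusted p = 0.040). Over 13 other settings the call of Ncr1 minus Cd8a was lost in 10, with adjusted p from 0.034 to 0.28 and a difference as small as -0.33 with a replicate block. Those of Klrd1 minus Cd8a and Klrg1 minus Cd8a were each lost in 5 of the 13, with the WT replicates 3, 4, 5 or 6 left out and with the block, where no pair can pass. Klrk1 minus Cd8a was 2.66 and 2.41, which did not pass (exact permutation p = 0.20, adjusted p = 0.20).

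The ligands of NKG2D showed no call. Ulbp1 was 101, 93.9, 106, 100 and 119 in the WT tumors and 109, 98.5, 122, 121 and 130 in the Siah2 KO tumors. The groups overlapped over most of their range. The log2 difference was 0.16 (limma adjusted p = 0.25), and its 95% confidence interval, -0.08 to 0.39, includes changes of either sign. With tumors scaled to an equal median the difference was -0.11, which lies outside that interval, so the interval does not cover the choice of scaling.

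A row named Raet1, the symbol of the family that Raet1a belongs to, ran from 780 to 1019 in WT tumors and from 917 to 1288 in Siah2 KO tumors (log2 difference 0.31, SE 0.11). It just missed the threshold (limma adjusted p = 0.051, exact permutation p = 0.032). Which members of the Raet1 family the probe binds was not tested. H60a lay between 1 and 6.29 in all 10 tumors, below the highest negative control value of 10.72, so it has no level or direction that can be read here.

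Because the receptors are carried by immune cells, each was also expressed relative to the immune cell transcripts of its own tumor. Summed normalized counts of 8 T cell genes (Cd3d, Cd3e, Cd3g, Cd8a, Cd8b1, Cd4, Cd5 and Cd6) were 539 to 713 in WT and 735 to 1275 in Siah2 KO tumors, and 5 of the 8 rose while Cd4, Cd5 and Cd6 were not called. Summed counts of 8 leukocyte genes, led by Lcp1, Itgb2 and Ptprc, were 4599 to 5655 and 6775 to 10250, and 6 of the 8 rose. Relative to the median of the T cell genes, 3 of the 9 receptors and ligands were called higher (Klrc1, Klrc2 and Klrb1c), against 10.5% of all probes called higher and 13.9% called lower on that scale. Relative to the median of the leukocyte genes, 3 were called higher (Klrk1, Klrc1 and Klrb1c), against 10.1% of all probes called higher and 34.0% called lower.

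Among the 9 genes Klrc1 had the largest difference on both relative scales. It was 1.12 higher relative to the T cell genes (SE 0.16, limma adjusted p = 0.00054) and 0.94 higher relative to the leukocyte genes (SE 0.12, limma adjusted p = 0.00032), and on both scales the 5 Siah2 KO tumors lay above the 5 WT tumors. Of the 8 T cell genes themselves, 3 were called higher and 2 lower relative to their median. Cd8a differed by 0.75, Cd8b1, at 4.26 to 16.9 counts in WT tumors, by 1.39, and Cd4 by -0.66 (limma adjusted p = 0.015, 0.0048 and 0.0084). Klrc1 and Klrc2 were not set against Cd8a within tumors, so whether they rose beyond CD8 T cell transcripts was not tested. Klrc2 was 0.56 higher relative to the T cell genes (limma adjusted p = 0.017) and 0.38 relative to the leukocyte genes (limma adjusted p = 0.060). Klrb1c was 0.80 and 0.62 higher (limma adjusted p = 0.012 and 0.045). With values under 20 raised to 20, as 4 of its WT values were, these became 0.47 and 0.29 (limma adjusted p = 0.054 and 0.12), and relative to the leukocyte genes its call was lost in 12 of 18 other settings. The ligand gene H2-T23 was 0.69 and 0.52 higher (limma adjusted p = 0.022 and 0.0097).

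Klrk1 differed by 0.50 relative to the T cell genes (limma adjusted p = 0.066) and by 0.32 relative to the leukocyte genes, at the threshold (limma adjusted p = 0.0496), a call lost in 11 of 18 other settings. Klrd1 differed by 0.33 and 0.16 (limma adjusted p = 0.15 and 0.21). Ncr1 differed by 0.16 relative to the T cell genes and by -0.02 relative to the leukocyte genes (limma adjusted p = 0.60 and 0.91), so its rise was not seen relative to either list; relative to the mean in place of the median of the T cell genes its difference was -0.07. Ulbp1 differed by -0.22 and -0.40 (limma adjusted p = 0.46 and 0.054), and relative to the leukocyte genes it was called lower in 4 of 18 other settings, with adjusted p from 0.019 to 0.17 over all of them. Leaving out single tumors moved the number of genes called in either direction relative to the leukocyte genes between 1 and 3, with Klrc1 called each time: it was 1 without WT replicate 2, 3 or 6 or Siah2 KO replicate 1, 3 or 5, and 2 without WT replicate 5 or Siah2 KO replicate 2. Without Siah2 KO replicate 6 the 3 were Klrc1 and Klrb1c, higher, and Ulbp1, lower.

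**Figure D3:**
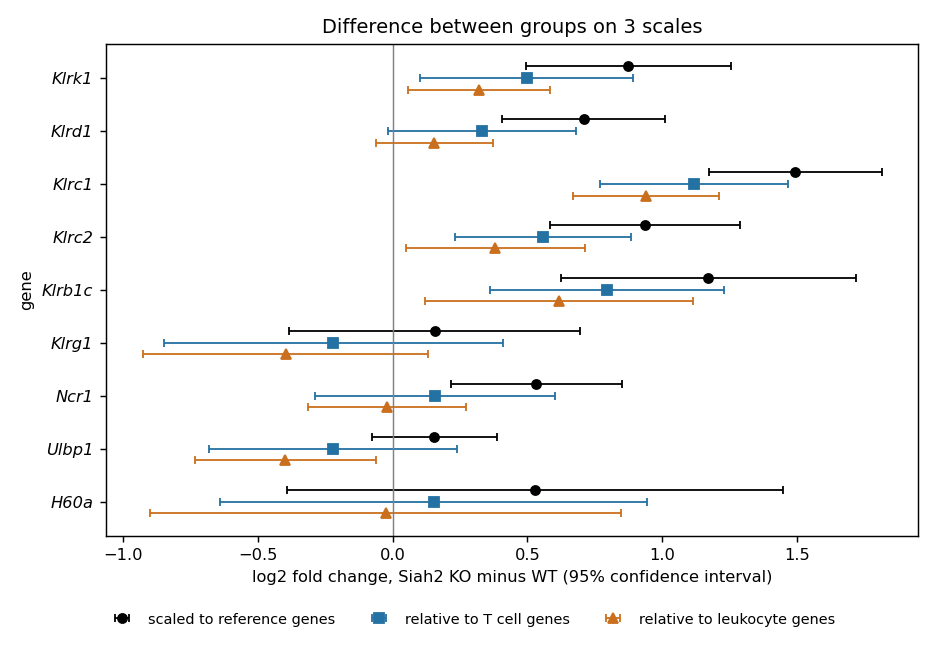
Log2 difference between Siah2 KO and WT tumors for the 9 genes, with 95% confidence intervals, as scaled to reference genes, relative to the T cell genes and relative to the leukocyte genes. The intervals of Klrk1, Klrc1, Klrc2 and Klrb1c lie to the right of 0 on all 3 scales, and they are not adjusted for the number of probes. Klrg1 and Ulbp1 lie at 0.16 on the first scale and below 0 on the other 2.

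Transcripts of other cells in the tumors moved between the groups as well. Summed counts of 8 macrophage genes were 15645 to 19018 in WT and 17686 to 26205 in Siah2 KO tumors, with 2 of the 8 called higher and 2 lower. Of 4 fibroblast genes 4 were lower (sums 16494 to 21344 and 10332 to 12326), and 2 of 3 genes of melanocytic cells, S100b and Cspg4, were lower (sums 438 to 594 and 224 to 405). S100b was 1.03 to 2.51 in Siah2 KO tumors and exceeded the highest negative control value in only 3 tumors, so the size of its fall is uncertain. Sums of 5 endothelial genes were 660 to 764 and 659 to 753, with 1 called higher and 1 lower. The B cell genes Ms4a1, Cd79a and Pax5 were at or below the highest negative control value in all tumors. Their part in the differences of the NK cell genes was not tested.

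Beyond these genes, 4 lists of the same biology held 54 entries, of which 27 rose, 1 fell and 26 were not called, against 31.3% of all probes called higher and 9.74% called lower. Their median log2 difference was 0.58, and that of all probes 0.24. With quantile normalization 18 of the 54 entries were called in either direction, against 334 of all 770 probes. With tumors scaled to the positive controls 4 of the 54 were called, against 95 of 770. Of 20 other genes of NK cell receptor families 9 rose and 0 fell (median 0.51), although 9 of the 20, most of them Ly49 genes (Klra), had a mean under 20 normalized counts. Slamf7, a receptor of the SLAM family, had the largest difference of that list: 155 to 260 normalized counts in WT tumors and 591 to 1265 in Siah2 KO tumors (log2 difference 2.17, limma adjusted p = 0.00018). Cd244 (2B4), which binds CD48, was 162 ± 27.8 and 333 ± 47.8 (SD, n = 5 each; log2 difference 1.04, limma adjusted p = 0.00055). Tigit, an inhibitory receptor for the poliovirus receptor, was 41.3 ± 3.29 and 84.9 ± 26.1 (SD, n = 5 each; log2 difference 0.97, limma adjusted p = 0.0028). Klra2, 1 of the Ly49 genes, differed by 1.35 (limma adjusted p = 0.00062). Which cells carried its transcript, and whether its probe binds other Ly49 transcripts, was not tested.

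Of 10 genes that carry the signals of these receptors 4 rose and 0 fell (median 0.55), a share near the 31.3% of all probes. Fcer1g, the adaptor used by NKp46 and by Fc receptors, was 1313 ± 122 in WT and 2374 ± 389 in Siah2 KO tumors (SD, n = 5 each; log2 difference 0.84, limma adjusted p = 0.00074). The kinase gene Syk rose by 0.52 (limma adjusted p = 0.0053). Both are also used by macrophages, whose genes are given above.

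Of 9 other ligand genes 6 rose and 1, Cdh1, fell (median 0.58), against 31.3% and 9.74% of all probes. Pvr, the ligand of Tigit, was 224 to 394 in WT and 474 to 748 in Siah2 KO tumors (log2 difference 1.09, limma adjusted p = 0.00095). Tnfrsf14, a ligand of CD160, rose by 0.90 (limma adjusted p = 0.0043), and H2-K1, a classical class I gene read by Ly49 receptors, by 0.60 (limma adjusted p = 0.0053).

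Of 15 cytokine receptors, cytokines and transcription factors of NK cells 8 rose and 0 fell (median 0.60), against 31.3% and 9.74% of all probes. Il12rb2, a chain of the interleukin 12 receptor, was 5.14 to 20.5 in WT and 46.9 to 101 in Siah2 KO tumors (log2 difference 2.44, limma adjusted p = 0.0012). Its values in WT replicates 2 and 5 lay below the highest negative control value, 10.72, so the size of this difference is uncertain. Tbx21, which encodes T-bet, was 21.1 ± 3.63 and 42.0 ± 11.4 (SD, n = 5 each; log2 difference 0.93, limma adjusted p = 0.0033). Runx3, a Runx factor of NK cells and CD8 T cells, was 31.7 ± 3.70 and 56.4 ± 12.1 (SD, n = 5 each; log2 difference 0.80, limma adjusted p = 0.0023). Il15ra, which presents interleukin 15, rose by 0.86 (limma adjusted p = 0.0016), while Il15 itself differed by 0.22 and was not called. Relative to the T cell genes 10 of the 54 entries were higher and 1 lower, against 10.5% and 13.9% of all probes, and relative to the leukocyte genes 9 were higher and 3 lower, against 10.1% and 34.0% of all probes.

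**Figure D4:**
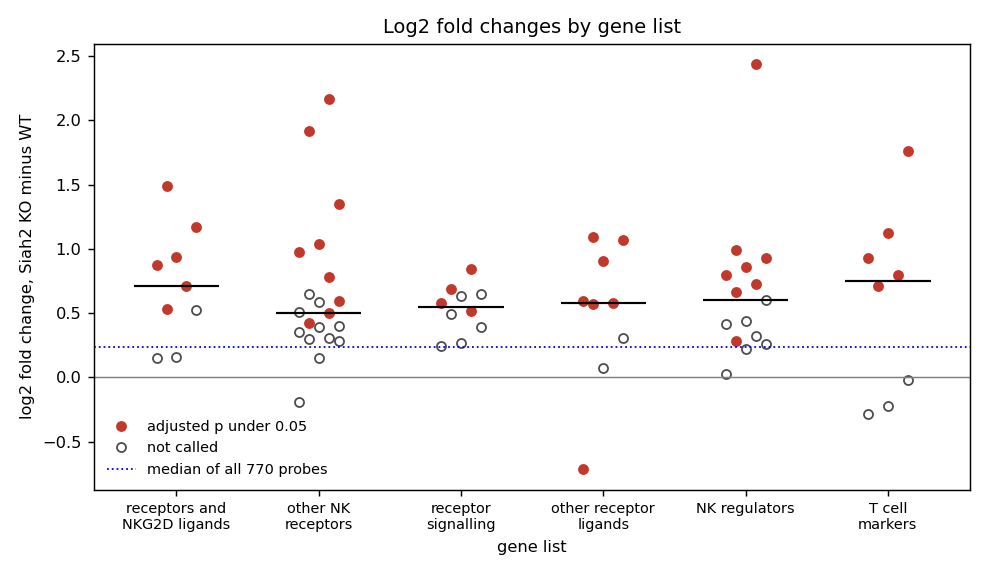
Log2 difference between Siah2 KO and WT tumors for each gene of the NK cell receptors and ligands of the 4 further lists and of the T cell genes, 1 point a gene, filled where called, with a bar at each list's median and a dotted line at 0.24, the median of all 770 probes. The medians of the NK cell lists lie between 0.51 and 0.71, that of the T cell genes is 0.75, and Cdh1 is the lowest point.

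Among the 3 genes whose profile over the 10 tumors was nearest to that of Klrk1, by the root mean square difference of centred log2 values among 581 endogenous genes with a mean of at least 20, were Tap1 (0.13) and Fcer1g (0.13), against a median of 0.43 over all candidates. For Ncr1 the 3 nearest were Bid (0.11), Ikbke (0.12) and Tapbp (0.14), against a median of 0.34. Such likeness includes the difference between groups and the scaling that the genes share. From highest to lowest mean over all tumors the probes ranked Klrd1, Klrk1, Klrc1, Ncr1, Ulbp1, Klrc2, Klrg1, Klrb1c and H60a, but probes differ in how well they bind, so this order is not one of transcript abundance.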

How the data were processed

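RNA of 10 whole tumors (100 ng each) was hybridised to 784 NanoString probes: 750 endogenous genes, 20 reference genes, 6 positive and 8 negative controls. The authors deposited normalized counts, a signal on a linear scale that is not centred, made per the study's methods and processing notes with nSolver (2.0). In the deposited signal a constant had been subtracted from each tumor, values under 1 had been set to 1, and gene values had then been multiplied by a factor per tumor that equalised the reference genes. The factor, recovered from the steps between values, was 0.918 to 1.32 in Siah2 WT and 1.03 to 1.60 in Siah2 KO tumors. Control probe values had not been multiplied by it, so the negative controls are on the scale of counts before the factor. On that scale H60a was at most 4.76 in any tumor. The floor of the deposited values was 1 in WT replicates 2, 3, 4 and 6, where the factor was under 1. In the other tumors the floor equalled the factor, so probes at the floor differ slightly between the groups. Counts summed to 382829 to 581656 per tumor before this factor, and 39 to 84 probes lay at the floor. Since the background had been subtracted, no count model was used.

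Values were transformed to log2(value + 1) and tested with limma 3.58.1 (lmFit, eBayes; R 4.3.3), two-sided and Benjamini-Hochberg adjusted over 770 probes, with group as the only term. Fold changes on this scale understate those of low genes. Exact permutation tests used all 252 divisions of the tumors. Relative scales subtracted, per tumor, the median log2 value of the T cell or leukocyte list, and 10 gene pairs were adjusted over the pairs. The script was tested on simulated data. The genes, lists, pairs and tests were chosen with earlier results of these data known. Besides all genes of the set, the text names from each of 4 lists the 4 genes with the largest absolute log2 difference among those called, not overlapping and with a mean of at least 20, plus Hcst, Raet1, H2-T23 and Cdh1 as direct partners, marker genes beside a result, and the 3 nearest profiles of Klrk1 and Ncr1; a nearest profile and a B cell marker are not reported here. Eomes and Il15 were named outside that rule for comparison, with their values seen. Alternatives were other scalings, a pseudocount of 10, a floor or filter at 20, endogenous probes only, the methods' t-test, an intensity trend, the mean of the T cell list, a replicate block and leaving out each tumor. The series design text names another cell line and another mutant, and the sample labels were followed. The study's text gives a harvest day 1 before that of the labels. No probe for Siah2 was used, so the genotype was taken from the labels.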

Additional observations from a re-analysis of the deposited data

Results flagged for a closer look

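H60a in Siah2 WT replicate 5 stood apart from the other WT tumors, at 6.29 normalized counts against 1 to 1.31. On the log2(value + 1) scale its gap to the nearest of them was 0.889 of the range of the group. It was the only 1 of 18 sets of 5 values (9 genes in 2 groups) to do so. Chance gives about 1 in 20 for normally distributed values, which values at the floor of 1, as in WT replicates 3 and 6, are not. The value lies below the highest negative control value of 10.72.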

How the results depend on the processing

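Of the 9 genes, 6 were called higher as deposited and 2 with tumors scaled to the positive controls. There Klrc1 (log2 difference 1.33, limma adjusted p = 0.0040) and Klrb1c stayed called, and Klrk1 (0.71), Klrd1 (0.55), Klrc2 (0.77) and Ncr1 (0.37) did not (limma adjusted p = 0.19, 0.33, 0.13 and 0.56); Ncr1 was also lost with quantile normalization (limma adjusted p = 0.066). Leaving out single tumors gave 6 to 7. The added gene was H60a (limma adjusted p = 0.043), which lay below the highest negative control value in all 10 tumors. Relative to the T cell genes the count of 3 became 2 with the mean of the list, 4 with a pseudocount of 10, and 3 to 4 without single tumors. Relative to the leukocyte genes the count of 3, all higher, became 5 in either direction with values raised to 20 (Klrk1, Klrc1 and Klrc2 higher, Ulbp1 and H60a lower, the latter all at the floor), 5 with a mean of at least 20 (Klrk1, Klrc1, Klrc2 and Klrb1c higher, Ulbp1 lower), 1 in the 8 tumors without a block, and 1 to 3 without single tumors. The 28 calls in the 4 lists became 18 with quantile normalization, where 334 of all 770 probes were called. They became 4 with positive control scaling, where 95 of 770 were called, and 25 to 34 without single tumors. The 5 pairs became 0 to 7 without single tumors. The cause was not tested.

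The labels' replicate numbers 2, 3, 5 and 6 occur in both groups, and deviations of same-numbered tumors correlated at 0.05, 0.14, 0.18 and 0.49. Differently numbered tumors were not correlated for comparison, so these values do not decide whether a shared number means a pair. The main tests did not take the numbers as pairs. With a replicate block over these 8 tumors 6 of the 9 genes were called, 2 relative to the T cell genes, and 0 of the 10 pairs, where the smallest p possible is 0.125.

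Values that changed sign were all of genes not called on the scale concerned. Ncr1, called higher as deposited, changed sign only relative to the T cell and leukocyte genes. As deposited, Klrg1 became -0.11, -0.13 and -0.0033 and Ulbp1 -0.11, -0.20 and -0.0051 with median, quantile and positive control scaling. Relative to the T cell genes, H60a became -0.21 with a pseudocount of 10, -0.38 with values raised to 20 and -0.072 with the list's mean, and ran from -0.075 to 0.47 without single tumors; Ncr1 became -0.067 with the list's mean. Relative to the leukocyte genes, Ncr1 became 0.072 in the 8 tumors with or without the replicate block and ran from -0.089 to 0.033 without single tumors, and H60a from -0.26 to 0.29. Low counts limit Klrb1c and H60a most.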
